A study of Mus musculus with 30 samples.

Results

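Angiopoietin-Tie and adrenomedullin signalling are represented here by 8 genes: Angpt2, Tek, Tie1, Ptprb, Adm, Calcrl, Ramp2 and Ramp3. They were chosen by name for their roles in the 2 ligand-receptor systems, and each matched 1 identifier among the 48795 genes counted. All 8 were among the 16844 genes that passed the filter on low counts. RNA was sequenced from primary endothelial cells, the cells that line blood vessels, taken from brains of wild-type mice given no treatment. The ages were 2, 6, 12, 18 and 24 months, with 6 libraries at each, of which replicates 1 to 3 were male and replicates 4 to 6 female. The study asked how expression changes with age by regression on age with sex accounted for. The sources used here do not state how the cells were isolated or whether animals were pooled, so p-values measure the spread between these samples.

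Angiopoietins are secreted ligands of the receptor tyrosine kinase TIE2, the product of Tek, which holds the resting endothelium stable. Angiopoietin 2, made by endothelial cells, is the context-dependent ligand that can block TIE2, while TIE1 is its partner receptor and the phosphatase VE-PTP, encoded by Ptprb, removes phosphate from TIE2. Adrenomedullin is a vasodilating peptide that tightens the endothelial barrier through the receptor encoded by Calcrl, which needs a partner protein, RAMP2 or RAMP3, to reach the cell surface and bind it.

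Gene counts per library lay between 24140980 and 50464366, and levels are given as CPM, a gene's count scaled to a common library total by the TMM method. The 10 markers of endothelial cells summed to 16291 to 21500 CPM per library. The 6 lymphatic markers summed to 62.8 to 216 CPM, and 1 of them, Ccl21a, was at 0 in every library. In such bulk samples, fewer cells of a type and less RNA per cell cannot be told apart. Before the ages are compared, 4 libraries stand apart in composition: the 3 female libraries of 6 months and replicate 1 (male) of 12 months had 44.2 to 47.6% of their counts in longer genes, those with more exon bases than the median gene, where the other 26 libraries had 51.2 to 61.1%. Calls of the 8 genes that were lost without them are given both ways. The share of reads outside genes also differed by age. It was 3.82 to 6.61% at 2 months and 7.99 to 13.1% at 18 months, with no overlap. A contrast of these ages cannot be fully told apart from that share.

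The 8 genes differ widely in level. Per kilobase of exon sequence not shared with another gene, the mean over 30 libraries was 354 CPM for Ramp2, 248 for Tek, 165 for Tie1 and 88.1 for Ptprb. It was 37.7 CPM per kilobase for Adm, 28.4 for Ramp3, 24.6 for Calcrl and 18.7 for Angpt2. The receptor and phosphatase genes of the Tie system thus stood above its ligand gene Angpt2 on this scale, and Ramp2 above Ramp3. Of the Ramp2 exon bases, 1103 (33.4%) are shared with the neighbouring gene Vps25, and reads there count to neither gene. Ramp3 shares 101 exon bases with the pseudogene Gm11978, at 0.0419 CPM.

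Of the 8 genes, 3 rose with age and none fell. The slope on age, given as the log2 change over 22 months, passed an adjusted p of 0.05 in edgeR's quasi-likelihood test for Angpt2, Adm and Ramp3, the 2 ligand genes and 1 receptor partner. Among all genes tested, 5.72% passed rising and 5.22% falling. For falling slopes the count at an unadjusted p under 0.05 was 1 of 8 (Ramp2), beside 12.3% of all genes tested. DESeq2 called the same 3 rising members, with slopes of 0.72 for Angpt2, 0.85 for Adm and 0.58 for Ramp3. The median slope of the 8 was 0.17, beside 0.03 for all genes tested.

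**Figure D1:**
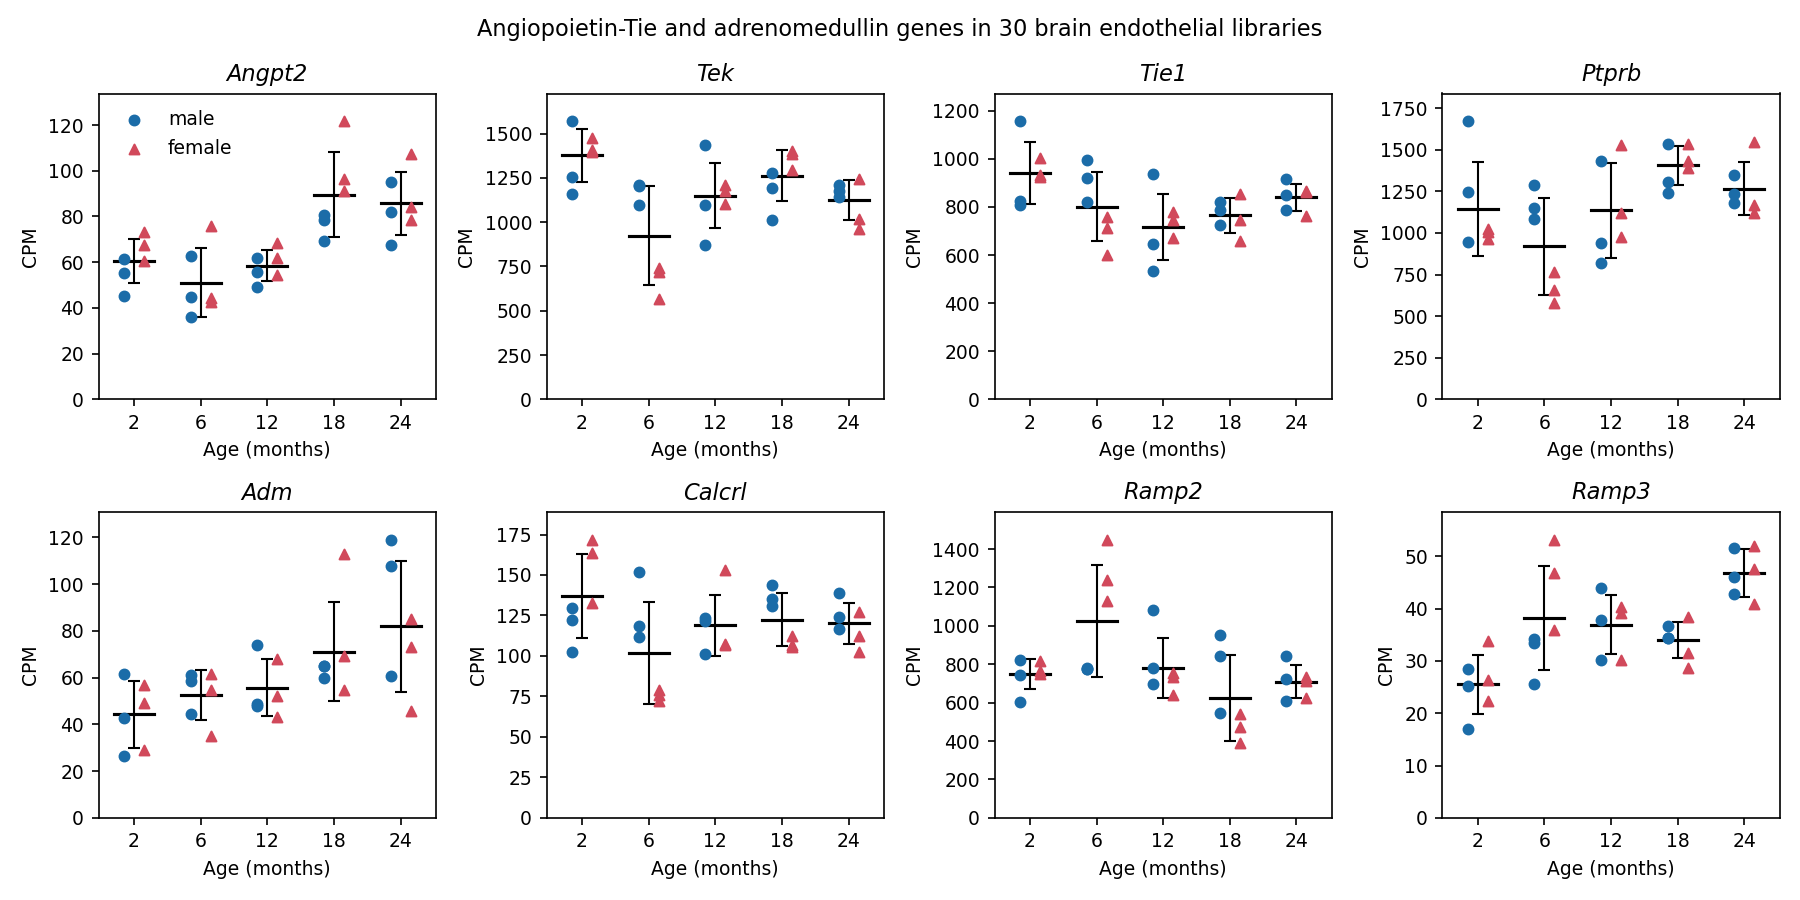
CPM of the 8 genes (vertical axis, from 0) in each library against age in months, with males as circles, females as triangles, and black bars for the mean and SD of the 6 libraries at each age. Adm has its highest mean at 24 months (81.9 CPM), Angpt2 at 18 months (89.6 CPM), and the 3 female libraries of 6 months sit low in Tek, Ptprb and Calcrl and high in Ramp2.

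Angpt2 lies on chromosome 8 (GRCm38 chr8:18690263-18741562, minus strand) and encodes the ligand angiopoietin 2. Its level ran from 45.3 to 73.0 CPM (median 60.9) at 2 months, 36.1 to 75.9 (median 44.5) at 6 months and 49.1 to 68.4 (median 58.7) at 12 months. It ran from 69.3 to 121.6 CPM (median 86.0) at 18 months and 67.6 to 107.2 (median 83.1) at 24 months. Of the 6 libraries at each later age, 5 of 18 months and 5 of 24 months lay above the highest 2-month library, and the ranges overlapped. The slope was 0.73 ± 0.14 (log2, SE, n = 30, adjusted p = 1.01e-03). Against 2 months it rose by 0.56 at 18 months (adjusted p = 5.23e-03) and by 0.51 at 24 months (adjusted p = 0.0186). The levels at 6 and 12 months did not differ from 2 months beyond the spread. By mean level the order was 18, 24, 2, 12 and 6 months, and among neighbours only 24 and 2 months differed. The departure from a straight line also passed for Angpt2 (F = 5.31, adjusted p = 0.0350). It was lost in 13 of the 30 fits that left out 1 library, with adjusted p up to 0.0806: replicates 2, 3, 5 and 6 of 2 months, 4 and 6 of 6 months, 3 to 6 of 12 months and 4 to 6 of 18 months. The contrast of 24 with 2 months was lost without replicate 2 or 5 of 24 months (adjusted p up to 0.0546).

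Adm, on chromosome 7 (chr7:110627661-110629820, plus strand), encodes the precursor of adrenomedullin. Its level was 26.3 to 61.4 CPM (median 46.0) at 2 months, 34.8 to 61.7 (median 56.5) at 6 months and 43.3 to 73.8 (median 50.4) at 12 months. At 18 months it was 54.5 to 112.8 CPM (median 65.0), and at 24 months 45.7 to 119.0 (median 79.0). Within each age the libraries varied by a wide margin, and 4 of 6 at 18 months and 4 of 6 at 24 months exceeded the highest 2-month library. The slope was 0.86 ± 0.19 (log2, SE, n = 30, adjusted p = 3.25e-03). The contrasts with 2 months passed at 18 months (0.69, adjusted p = 0.0322) and 24 months (0.88, adjusted p = 0.0126). The mean level rose through every age in order, 44.3, 52.5, 55.7, 71.0 and 81.9 CPM, and no neighbouring pair of ages differed beyond its spread. The 18-month contrast was lost without replicate 6 of 18 months or replicate 1, 3 or 4 of 2 months (adjusted p up to 0.128). It was 0.84 and did not pass with the share of reads outside genes as a covariate (adjusted p = 0.335), nor did it pass with no filter on low counts (0.68, adjusted p = 0.0661).

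Ramp3 (chr11:6658521-6677475, plus strand) encodes a partner that carries the adrenomedullin receptor to the surface. Its level was 16.9 to 33.8 CPM (median 25.8) at 2 months, 25.6 to 53.1 (median 35.0) at 6 months and 30.1 to 43.9 (median 38.5) at 12 months. At 18 months it was 28.6 to 38.5 CPM (median 34.3), and at 24 months 40.8 to 51.9 (median 46.8). Every 24-month library was above every 2-month library, the only age of any of the 8 genes that did not overlap 2 months. Over all genes tested, 24 and 2 months did not overlap in 6.50%. The slope was 0.59 ± 0.15 (log2, SE, n = 30, adjusted p = 0.0114). Against 2 months Ramp3 rose at 6 months (0.57, adjusted p = 0.0150), 12 months (0.54, adjusted p = 0.0388), 18 months (0.42, adjusted p = 0.0435) and 24 months (0.88, adjusted p = 1.47e-04). Without the 4 libraries set apart by composition, the 6-month change was 0.31 (adjusted p = 0.474) and the 12-month change 0.47 (adjusted p = 0.0564). Its departure from a line (F = 5.25, adjusted p = 0.0361) was also lost without them (adjusted p = 0.317).

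Single libraries decided several of the smaller Ramp3 changes. The 6-month change was lost without replicate 6 of 6 months (adjusted p = 0.0575). The 12-month change was lost without replicate 1, 2, 4 or 5 of 12 months or 1, 3, 5 or 6 of 2 months (adjusted p up to 0.11), and the 18-month change without replicate 1, 2, 3 or 6 of 18 months, 1, 3, 5 or 6 of 2 months or 5 of 24 months (up to 0.113). Its departure from a line was lost without replicate 5 or 6 of 2 months, 5 or 6 of 6 months or 4 or 5 of 18 months (up to 0.0912). The change at 24 months and the slope passed in all 30 of these fits. The slope did not pass without all 2-month libraries (0.27, adjusted p = 0.382) or without all 24-month libraries (0.41, adjusted p = 0.289). The 18-month change was 0.84 and did not pass (adjusted p = 0.0656) with the share of reads outside genes as a covariate. With no filter on low counts, neither the 18-month change (0.41, adjusted p = 0.0721) nor the 12-month change (0.54, adjusted p = 0.0558) passed. With the share of counts in longer genes as a covariate the 6-month change was 0.36 (adjusted p = 0.143). By mean level the order was 24, 6, 12, 18 and 2 months, and among neighbours only 18 and 2 months differed.

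**Figure D2:**
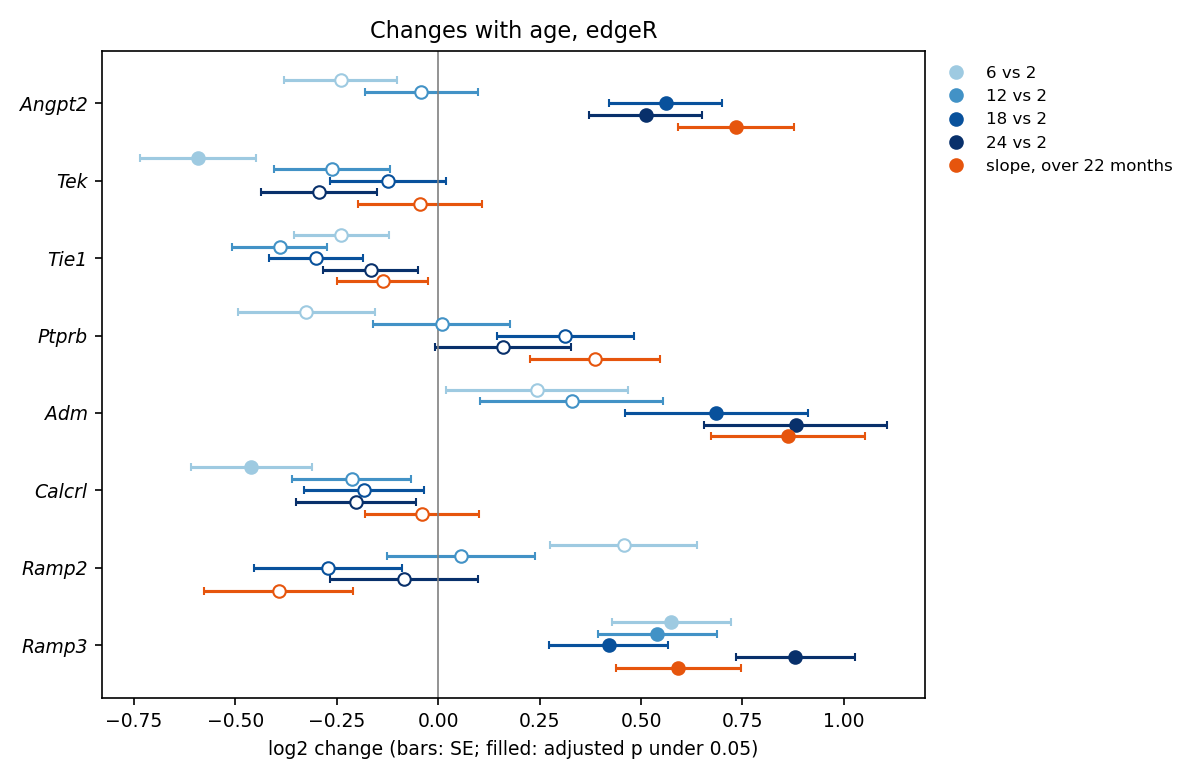
Log2 change in edgeR (horizontal axis, bars 1 SE) of each gene at 6, 12, 18 and 24 months against 2 months, and of the slope over 22 months, with filled points for an adjusted p under 0.05. The filled points of the slope are Angpt2, Adm and Ramp3 alone.

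Counted over the 8 genes, 6 against 2 months called 3 (8.76% of all genes tested), 12 against 2 months called 1 (2.94%), 18 against 2 months called 3 (18.8%) and 24 against 2 months called 3 (8.35%). Against 6 months, 18 months called 4 (24.6%) and 24 months 1 (2.91%). Against 12 months, 18 months called 1 (13.2%) and 24 months 1 (2.04%), in both Angpt2. No member was called by edgeR at 12 against 6 months (1.89% of genes) or 24 against 18 months (1.26%). There the unadjusted p in edgeR was under 0.05 for 2 members (Tek and Ramp2) and 1 member (Ramp3), beside 14.7% of all genes tested in each pair. DESeq2 values for these pairs are not given here. These comparisons share libraries, so their counts are not independent. The share of 4 members at 18 against 6 months stands beside the highest background of the 10 pairs.

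Angpt2 also rose from 6 to 18 months (0.80, adjusted p = 2.15e-04) and from 6 to 24 months (0.75, adjusted p = 3.71e-03). From 12 months it rose by 0.60 to 18 months and by 0.55 to 24 months (adjusted p = 5.21e-03 and 0.0322). The change from 12 to 18 months was 0.90 and did not pass with the share of reads outside genes as a covariate (adjusted p = 0.0558). Without the 6-month female libraries, 24 against 6 months was 0.71 (adjusted p = 0.0501). The contrast of 24 with 12 months was lost without replicate 3, 4 or 5 of 12 months or 2, 3 or 5 of 24 months (adjusted p up to 0.0821).

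Tek (chr4:94739289-94874976, plus strand), the receptor gene, had a slope that did not pass (-0.05 ± 0.15, adjusted p = 0.886). The slope was -0.22 without the 4 libraries set apart by composition (adjusted p = 0.0891). With the share of counts in longer genes as a covariate it was -0.27 (adjusted p = 0.0501). It ran from 1161 to 1569 CPM (median 1400) at 2 months, 569 to 1208 (median 921) at 6 months and 871 to 1438 (median 1140) at 12 months. At 18 months it ran from 1013 to 1404 CPM (median 1288), and at 24 months from 961 to 1245 (median 1161). The 6-month libraries split by sex: the males were at 1099, 1208 and 1205 CPM and the females at 720, 569 and 742. Across both sexes Tek fell by 0.59 at 6 against 2 months (adjusted p = 0.0111), and its departure from a line passed (F = 6.19, adjusted p = 0.0222). Without the 4 libraries set apart by composition, the 6-month change was -0.22 (adjusted p = 0.481) and the departure was lost (adjusted p = 0.494). The 6-month change was -0.31 and passed with the share of counts in longer genes as a covariate (adjusted p = 0.0302). The departure passed in that fit too (adjusted p = 0.0225), but not with the share of reads outside genes as a covariate (adjusted p = 0.0559). The departure was also lost without any 1 of the 6-month females (replicates 4, 5 and 6, adjusted p up to 0.0784). From 6 to 18 months Tek rose by 0.47 (adjusted p = 0.0171), which was 0.09 without the 4 libraries (adjusted p = 0.751). Over all genes, 17.7% passed the test of departure, as did 3 of the 8.

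Calcrl (chr2:84330626-84425411, minus strand), the receptor gene for adrenomedullin, and Ptprb (chr10:116275523-116389535, plus strand) were also low in the 6-month females. Calcrl had a level of 72.3 to 79.3 CPM in the 3 females of 6 months and 112 to 152 in the 3 males. Its fall from 2 to 6 months in all libraries (-0.46, adjusted p = 0.0495) was -0.10 without the 4 libraries set apart by composition (adjusted p = 0.888) and -0.11 without the 6-month females (adjusted p = 0.902). It was also lost in 26 of the 30 fits that left out 1 library (adjusted p up to 0.178) and kept only without replicate 1 of 2 months, 1 or 3 of 6 months or 5 of 12 months. Ptprb was at 580 to 762 CPM in the females and 1082 to 1287 in the males of 6 months. Its slope of 0.39 ± 0.16 did not pass (adjusted p = 0.121), nor did that of Calcrl (-0.04 ± 0.14, adjusted p = 0.890). From 6 to 18 months Ptprb rose by 0.64 (adjusted p = 6.55e-03), which was 0.29 without the 4 libraries set apart by composition (adjusted p = 0.377). Calcrl had its highest mean at 2 months (137 ± 26.2 CPM, SD, n = 6), followed by 18 (122 ± 16.4), 24 (120 ± 12.6), 12 (119 ± 19.0) and 6 months (102 ± 31.5). Ptprb had its highest at 18 months (1406 ± 119 CPM), followed by 24 (1266 ± 157), 2 (1143 ± 281), 12 (1136 ± 285) and 6 months (920 ± 291). In neither gene did neighbours in the order differ, nor did they in Tek, whose order was 2, 18, 12, 24 and 6 months.

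Ramp2 (chr11:101246028-101259546, plus strand), the more abundant receptor partner, went the other way. Its 6-month females were at 1448, 1239 and 1129 CPM and its males at 775, 780 and 777, with no overlap. Over 22 months its slope was -0.39 ± 0.18 (adjusted p = 0.169). Its mean was 1025 ± 290 CPM (SD, n = 6) at 6 months, 781 ± 155 at 12, 749 ± 78.9 at 2, 708 ± 85.8 at 24 and 624 ± 222 at 18 months. It fell by 0.73 from 6 to 18 months (adjusted p = 4.60e-03), which was -0.25 without the 4 libraries (adjusted p = 0.485). Tie1 (chr4:118471191-118490061, minus strand), the partner receptor of TIE2, had a slope of -0.14 ± 0.11 (adjusted p = 0.465). Its mean was 941 ± 127 CPM at 2 months, 840 ± 57.2 at 24, 801 ± 143 at 6, 765 ± 71.7 at 18 and 718 ± 137 at 12 months. At 18 against 2 months Tie1 did not pass in edgeR (-0.30, adjusted p = 0.0700), but it passed in DESeq2 (-0.30, adjusted p = 0.0391), without the 4 libraries set apart by composition (-0.31, adjusted p = 0.0214) and without replicate 1 of 2 months or 1 of 12 months (adjusted p down to 0.0450). Neighbours in these orders of Ramp2 and Tie1 did not differ beyond their spread.

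A test of whether the change from 2 to 6 months differs between the sexes was added after the data were seen. It passed for Tek, with a female minus male change of -0.89 ± 0.20 (adjusted p = 0.0153), and for Calcrl, with -1.15 ± 0.20 (adjusted p = 2.27e-03). That is 2 of 8 members, beside 2.94% of all genes (495). The count over all genes was 50 with the share of counts in longer genes as a covariate and 154 to 692 with 1 library left out, and it moved most without replicates 1, 5 or 6 of 2 months or 2, 3 or 5 of 6 months. In the same added fit, 6 of 8 members differed in females between 6 and 2 months (19.2% of genes): Tek (-1.07), Calcrl (-1.04), Ptprb (-0.58) and Tie1 (-0.47) fell and Ramp2 (0.71) and Ramp3 (0.72) rose. In males none did in edgeR (0.594% of genes), 0 of 8 also at an unadjusted p under 0.05, the lowest being 0.0501 for Ramp3, and no other tool was run. At 6 months 4 of 8 differed between the sexes (11.3% of genes), namely Tek, Ptprb, Calcrl and Ramp2. The Tek difference did not pass without replicate 1 of 2 months or 5 of 6 months (adjusted p up to 0.0701). It was -0.45 with the share of counts in longer genes as a covariate (adjusted p = 0.238), while that of Calcrl held in every alternative run for it.

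Other values moved with the 6-month females. The 8 choroid plexus and ependyma markers summed to 1119 to 5412 CPM in them and 397 to 908 in the 6-month males, with no overlap. The 8 neuron markers were also higher in those females (92.0 to 132.5 CPM against 61.96 to 77.9), and the 8 oligodendrocyte markers lower (145 to 257 CPM against 347 to 457). The 5 erythroid markers summed to 1230 to 2731 and 793 to 1449 CPM, which overlap. The 10 endothelial markers did not separate the sexes, at 18465 to 19580 CPM in females and 17996 to 19977 in males. Such levels of choroid plexus and neuron markers were also seen at other ages. The choroid plexus and ependyma markers summed to 929 to 4356 CPM at 2 months, and the neuron markers to 110 to 152 CPM at 24 months. The part of these markers in the results for Tek and Calcrl was not tested.

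Sex and the slope's dependence on sex were tested over all ages. No member passed for sex in edgeR (0.101% of genes did), and at an unadjusted p under 0.05 the count was 1 of 8 (Angpt2), beside 7.81% of genes. No member and no gene (0.0%) passed for the product of sex and age. At an unadjusted p under 0.05 the count was 2 of 8 members (Ptprb and Ramp2), beside 5.44% of genes. No other tool was run for either.

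By both Pearson's r and Spearman's rho, the level of 4 genes followed the share of counts in longer genes across the 30 libraries (8 relations, each with a two-sided permutation p). For Ptprb, r was 0.88 and rho 0.83 (adjusted p = 2.67e-05 and 8e-05), with r = 0.84 without the 2 farthest libraries. For Ramp2, r was -0.87 and rho -0.74 (adjusted p = 2.67e-05 and 8e-05), with r = -0.85. Tek had r = 0.81 and rho = 0.64 (adjusted p = 2.67e-05 and 4e-04), with r = 0.76. Without the 4 lowest libraries these were 0.72, -0.72 and 0.46. Angpt2 followed it less (r = 0.41, rho = 0.44, adjusted p = 0.0307 and 0.0308; 0.48 without the 2 farthest), and within males its r was 0.05. Without the 4 lowest libraries its r was also 0.41 (adjusted p = 0.0774). Tie1 passed by r alone (r = 0.47, rho = 0.39, adjusted p = 0.0177 and 0.0539), as did Calcrl (r = 0.42, rho = 0.19, adjusted p = 0.0307 and 0.363), and both were near 0 or negative without the 4 lowest libraries (0.08 and -0.19). Adm (r = 0.11, adjusted p = 0.568) and Ramp3 (r = -0.33, adjusted p = 0.0817) did not pass. Libraries share this measure with every gene, and the 18-month libraries had the highest mean share (57.8 ± 2.41%, SD, n = 6).

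**Figure D3:**
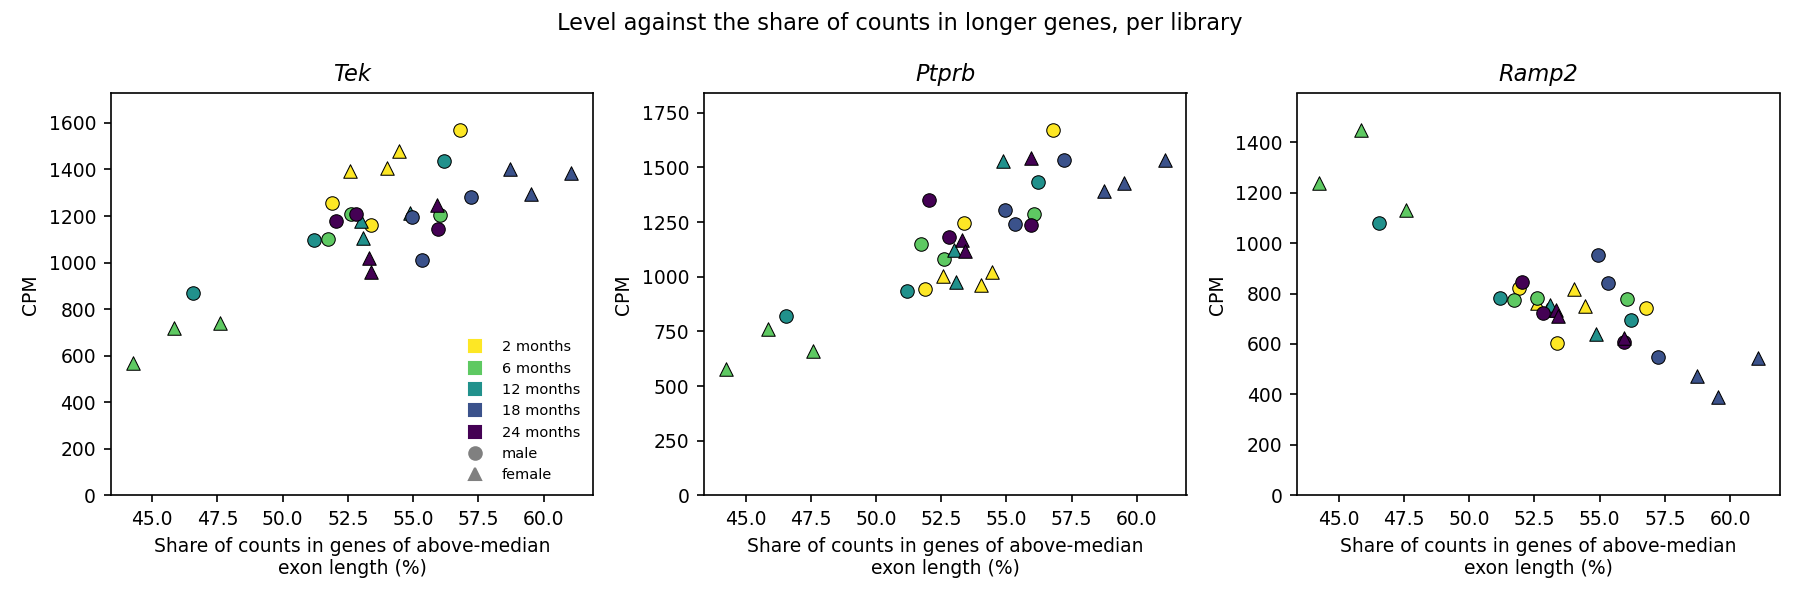
CPM of Tek, Ptprb and Ramp2 (vertical axes) in each of the 30 libraries against the percent of its counts in genes with more exon bases than the median gene (horizontal axis), coloured by age with sex as the symbol. The 3 female libraries of 6 months lie at the left end, where Tek and Ptprb are lowest and Ramp2 highest.

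With age and sex removed as separate terms, the receptor and phosphatase genes of the Tie system moved together between libraries. Of 28 pairs of residuals (log2 CPM after age and sex), 9 passed by both Pearson and Spearman permutation tests, 6 positive and 3 negative. For Tek with Ptprb, r was 0.80 and rho 0.80 (adjusted p = 9.33e-05 and 1.4e-04), with r = 0.72 without the 2 farthest libraries. Tek with Tie1 gave r = 0.79 and rho = 0.75 (adjusted p = 9.33e-05 and 1.4e-04), and 0.69. Tie1 with Ptprb gave r = 0.75 and rho = 0.66 (adjusted p = 9.33e-05 and 6.72e-04), and 0.65. These 3 receptor and phosphatase genes remained correlated without the 4 libraries set apart by composition, at 0.69, 0.69 and 0.65. A sex difference at a single age, such as that of Tek, Ptprb, Calcrl and Ramp2 at 6 months, stays in the residuals. Without the 6-month females r was 0.75, 0.76 and 0.72. The residuals were not adjusted for the share of counts in longer genes, which Tek, Ptprb and Ramp2 followed. The part of that share in the 9 pairs was not tested. Pairs of other genes were not tested either, so the 9 of 28 has no background beside it.

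Both ligand genes also varied together: Angpt2 with Adm had r = 0.53 and rho = 0.58 (adjusted p = 9.24e-03 and 4.2e-03), with r = 0.54 without the 2 farthest libraries. It was 0.32 in the 15 males and 0.71 in the 15 females. Ramp2 with Ramp3 gave r = 0.50 and rho = 0.51 (adjusted p = 0.0169 and 0.0161; 0.48). Tek with Calcrl gave r = 0.48 and rho = 0.44 (adjusted p = 0.0217 and 0.0454; 0.47), and r = 0.39 (unadjusted permutation p = 0.0509) without the 4 libraries set apart by composition. Without the 6-month females the r of Tek with Calcrl was 0.36. The negative pairs were Tek with Ramp2 (r = -0.68, rho = -0.70; -0.62), Ptprb with Ramp2 (r = -0.66, rho = -0.76; -0.70) and Ptprb with Ramp3 (r = -0.56, rho = -0.54; -0.58). Their adjusted p-values for r were 2.1e-04, 4.48e-04 and 5.55e-03.

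**Figure D4:**
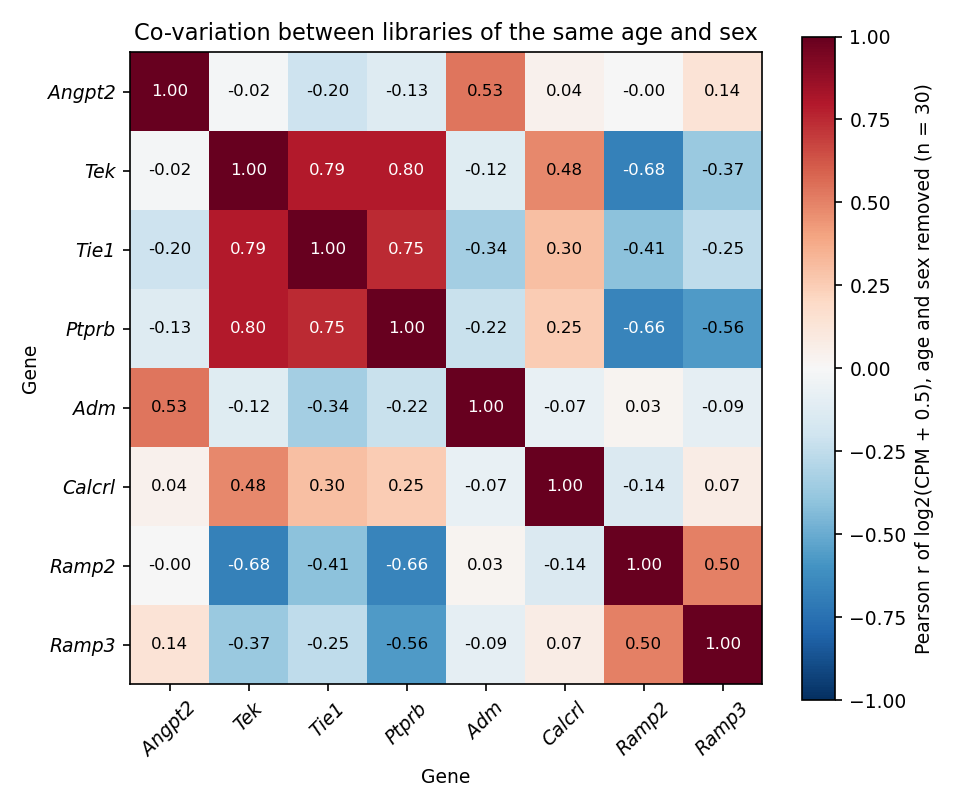
Pearson r between each pair of the 8 genes (both axes) over 30 libraries after removal of age and sex as separate terms, from blue (-1) to red (1), with the value in each cell. A sex difference at a single age is not removed. Tek, Tie1 and Ptprb form a block of 0.75 to 0.80, and Angpt2 and Adm pair at 0.53.

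The genes most like each member over the 30 libraries, as a description among 9060 genes with a mean of at least 10 CPM, were these. Adm was most like Depp1 (r = 0.79), Ankrd37 (0.76) and Bhlhe40 (0.69). For Angpt2 they were Cyp1b1 (0.68), Acer2 (0.67) and Hyou1 (0.67), and for Ramp3 Ifitm10 (0.83), Sp110 (0.80) and Fra10ac1 (0.79). Tek was most like Fbxw11 (0.97), Erlin2 (0.97) and Atp2c1 (0.95), and Ptprb like Adgrf5 (0.95), Slmap (0.93) and Tgfbr3 (0.93). Tie1 was most like Tspan9 (0.87), Ddx54 (0.87) and Gatad2a (0.84), Calcrl like Fam198b (0.83), Kat7 (0.80) and Slco1a4 (0.78), and Ramp2 like Ly6c1, Akr1a1 and Ssb (0.93, 0.93 and 0.92). The libraries share depth, composition and age.

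Upstream sequence is shown for Adm and Ramp3, the rising members with an entry in the RefSeq promoter table (GRCm38.p6). Of the 8 members, 5 had one. The bases before the RefSeq start, 5′ to 3′ on the gene's strand, are Adm at chr7:110627407-110627656 and Ramp3 at chr11:6658283-6658520, the latter ending where the annotated gene begins. Capitals mark matches to the motifs searched.
Adm: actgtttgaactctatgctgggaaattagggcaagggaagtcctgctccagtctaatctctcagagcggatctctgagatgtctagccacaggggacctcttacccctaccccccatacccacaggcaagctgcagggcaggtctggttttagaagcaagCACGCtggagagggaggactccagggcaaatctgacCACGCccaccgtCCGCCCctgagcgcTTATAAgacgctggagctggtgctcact
Ramp3: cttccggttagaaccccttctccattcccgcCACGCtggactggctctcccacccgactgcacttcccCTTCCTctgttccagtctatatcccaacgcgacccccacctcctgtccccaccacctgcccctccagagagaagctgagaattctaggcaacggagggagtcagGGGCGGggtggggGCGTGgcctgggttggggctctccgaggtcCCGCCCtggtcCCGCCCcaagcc

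Motifs were searched on both strands of the 250 bases before each start. Adm held GCGTG, a core of the hypoxia response element, at 90 to 86 and 54 to 50 bases before the start, both on the minus strand, and Ramp3 held it at 65 to 61 on the plus strand and 219 to 215 on the minus strand. Of all 32851 promoters 28.2% hold it. Adm also held TATAA (22.8% of promoters) within 28 bases of the start on both strands, where the matches overlap, and GGGCGG (32.7%). Ramp3 held GGGCGG at 3 places and AGGAAG (29.5%), a core of ETS sites. ACGTG (16.6%) and the forkhead core TGTTTAC (3.17%) were in neither window.

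Of all genes tested, 10.9% passed the slope in either direction. Of the other Angiopoietin-Tie genes, 18 of 20 were tested and 2 passed the slope: Pik3r1, a regulatory subunit of PI3-kinase, rose (0.56 ± 0.14, adjusted p = 0.0111) and the adaptor gene Grb7 fell (-0.46 ± 0.13, adjusted p = 0.0209). Pik3r1 had means of 23.8 CPM at 2 months and 34.0 at 24 months, and Grb7 68.6 and 56.6. The list's median slope was -0.05, beside 0.03 for all genes. Single contrasts with 2 months passed for more of them, named here after their values were seen. Ptpn11, which encodes the phosphatase SHP2, rose by 1.13 at 6 months (adjusted p = 4.24e-07), 0.73 at 18 months (9.72e-05) and 0.83 at 24 months (2.15e-05). The integrin gene Itgb1 fell by 0.76 at 6 months (1.56e-03) and by 0.42 at 18 months (0.0392). Itga5, also an integrin gene, fell by 0.71 at 6 months (0.0127) and by 0.57 at 24 months (0.0365). At 6, 18 and 24 months, 8.76%, 18.8% and 8.35% of all genes tested passed. These contrasts were not repeated without the 6-month females. Klf2, Itgb1, Nos3 and Akt1, at high levels, had slopes of -0.09, -0.20, 0.04 and -0.02 that did not pass. The count by slope was 0 with either sex alone or with the share of reads outside genes as a covariate, and 5 without the 4 libraries set apart by composition. It was also 0 without the 18-month libraries, and 1 without the 2-month or without the 24-month libraries.

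Of the other adrenomedullin and CGRP receptor genes, 21 of 24 were tested, 3 rose and none fell, with a median slope of 0.01. Pam, which encodes the enzyme that amidates adrenomedullin, rose (0.31 ± 0.09, adjusted p = 0.0290), as did the adenylyl cyclase gene Adcy3 (1.23 ± 0.39, adjusted p = 0.0358) and the arrestin gene Arrb1 (0.66 ± 0.22, adjusted p = 0.0437). Rap1b, Rapgef3 and Adcy4, at high levels, had slopes of -0.16, 0.16 and 0.00 that did not pass. The count fell to 0 in either sex alone and to 1 without the 6-month female libraries. It was 7 without the 24-month libraries, and 0 without the 18-month libraries or with the share of reads outside genes as a covariate. Leaving out 1 library gave 0 to 4, and the count moved most without replicates 2, 4 and 6 of 2 months, 4 of 6 months, 5 of 18 months and 3 and 4 of 24 months.

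Of 9 tip cell genes, Pgf rose (1.09 ± 0.28, adjusted p = 0.0114) and the apelin gene Apln fell (-1.62 ± 0.50, adjusted p = 0.0326), while Dll4, Nid2, Plvap and Unc5b had slopes of -0.36, 0.23, -0.88 and -0.02 that did not pass. Of 18 hypoxia-inducible genes 2 rose, Bnip3 (0.65 ± 0.14, adjusted p = 2.34e-03) and Ankrd37 (1.17 ± 0.25, adjusted p = 2.38e-03), with a list median of 0.15. Slc2a1, Ndrg1, Ldha and Mxi1 had slopes of -0.05, -0.05, 0.25 and -0.16 that did not pass. The count for hypoxia-inducible genes was 0 without the 2-month libraries or in either sex alone. It was 1 with the share of reads outside genes as a covariate and 4 without the 4 libraries set apart by composition. That for tip cell genes was 1 to 3 with 1 library left out, and moved without replicates 2, 4, 5 or 6 of 2 months or 4 or 5 of 24 months. The tip cell count was 0 in males alone. It was 1 in females alone, without the 18-month libraries, with no sex covariate or with the outside-gene share as a covariate.

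Markers of other cells also moved with age. Of 10 pericyte markers 4 rose, and their summed level per library lay between 453 and 758 CPM at 2 months, between 388 and 776 CPM at 18 months and between 486 and 1247 CPM at 24 months (medians 647, 516 and 840 CPM). Of 9 venous markers 5 rose and 2 fell, and of 8 capillary markers 3 fell. Over all genes tested, 5.72% rose and 5.22% fell. The venous markers summed to a median of 1243 CPM at 2 months. Their medians were 925, 821, 1025 and 958 CPM at 6, 12, 18 and 24 months. Of 8 choroid plexus and ependyma markers 4 fell and none had a positive slope, with a median of -1.26. Of 8 smooth muscle markers tested 1 rose, with a median slope of 0.79, and of 9 astrocyte markers 3 fell (median -0.62). The part of these in the rise of Angpt2, Adm and Ramp3 was not tested.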

How the data were processed

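Per library the authors deposited raw read counts per gene, in whole numbers. The submitters' processing notes name STAR 2.5.2b, FastQC 0.11.4, MultiQC, HTSeq and the build GRCm38. The SMART-Seq v4 and Nextera XT kits named in the labels' protocols keep no strand and add no molecular identifiers. Of the libraries 24 were paired-end and 6 single-end, the latter on another instrument, and the sources used here do not say which. Read layout and instrument therefore could not enter a model, and whether they follow age is not known. The unstranded column was used. Lines without a gene (4 per table) were dropped and held 2.51 to 6.26% unmapped, 8.64 to 13.3% multi-place, 3.82 to 13.1% outside-gene and 3.61 to 4.21% several-gene reads.

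Analysis used R 4.3.3, edgeR 4.0.16 (filterByExpr by age, minimum count 10, TMM, robust quasi-likelihood, Benjamini-Hochberg over 16844 genes, threshold 0.05) and, as an alternative, DESeq2 1.42.0. Age was a number for slopes and a factor for pairs, with sex as covariate. Correlations used log2(CPM + 0.5) and 100000 permutations; 1e-05 is the smallest p they can give. The fit was tested on simulated data. Coordinates are from GENCODE on GRCm38. Genes named are the 8 members, pathway genes whose slope passed, up to 4 others per pathway list by mean level (1 is not reported here), and the 3 most alike per member. Members and lists were chosen with earlier results of these data known. Libraries, ages, covariates and scaling were varied as alternatives.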

Additional observations from a re-analysis of the deposited data

Results flagged for a closer look

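Of the 40 groups of 6 libraries checked (8 genes at 5 ages), 3 held a library far from the others, where chance flags about 1 in 20. Adm in replicate 6 (female) of 18 months was at 112.8 CPM. Ramp2 was lowest in replicate 1 (male) of 2 months, at 604.0 CPM, and highest in replicate 1 (male) of 12 months, at 1081 CPM. The change from 2 to 6 months differed between the sexes, by a test of the difference chosen after seeing the data: female minus male it was -0.89 for Tek and -1.15 for Calcrl. The causes were not tested.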

How the results depend on the processing

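No paired analysis was possible because the labels give animal codes and no replicate numbers shared between ages. The slopes of Angpt2, Adm and Ramp3 passed in all 30 fits that left out 1 library (0.69 to 0.78, 0.76 to 0.96 and 0.51 to 0.66). In females alone they were 0.72 (adjusted p = 0.0761), 0.73 (0.139) and 0.36 (0.389), so 0 members were called; in males Adm was 0.98 (0.0527). Ramp3 was 0.27 without the 2-month and 0.41 without the 24-month libraries, and passed in neither. Genes called by the slope, 1843 in all, numbered 623 in females, 193 in males, 402 with the share of reads outside genes as covariate, 726 without 18 and 940 without 2 months. Slopes near 0 reversed: Calcrl was 0.11 in males and 0.27 without 2 months, Tek 0.040 in females, 0.35 without 2 and 0.011 without 24 months, and Tie1 0.082 without 2 months. Leaving out 1 library gave Calcrl -0.082 to 0.052, Tek -0.10 to 0.011 and Ptprb 0.33 to 0.49, which passed without replicate 3 of 2 months. With the longer-gene share as covariate, 18 against 2 months was -0.030 for Ptprb and 0.034 for Ramp2, and 18 against 6 months -0.054 for Ptprb and -0.12 for Tek, while Tie1 (-0.51, adjusted p = 7.60e-05) and Tek (-0.43, 6.51e-04) passed at 18 and Tek (-0.29, 9.49e-03) at 24 against 2 months. Without the 6-month females Tie1 passed at 18 against 2 months (-0.31, 0.0416). With the outside-gene share, Ramp2 was 0.31 at 18 and 0.15 at 24 against 2 months. Without the 4 libraries lowest in longer genes, Tek, Ptprb and Ramp2 were 0.09, 0.29 and -0.25 at 18 against 6 months and lost their calls, and Tek passed at 24 against 2 months (-0.30, adjusted p = 0.0349). Among contrasts with 2 months, leaving out 1 library ended that of Adm at 18 months in 4 fits, of Ramp3 in 9 and of Angpt2 at 24 months in 2. The causes were not tested.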
